A study of Caenorhabditis elegans with 12 samples.

Results

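The genes pgl-3, glh-2 and puf-6 encode proteins of germ granules and oocytes in Caenorhabditis elegans, and were chosen by name. They are 3 of 7553 genes named for a region of acetylated histone H4 in either of 2 deposited tables, and 3 of the 3750 genes named in both. All 3 genes carried more reads in chromatin precipitated for H4K5ac and for H4K8ac than in the matching input, and a region of each mark lay over the start of each gene. Adults of Bristol N2, the usual wild-type strain of laboratories, were taken whole after growth on Escherichia coli OP50 at 20 °C, and their chromatin was sheared to between 0.2 and 1 kb. The 12 libraries formed 4 groups of 3: chromatin immunoprecipitated (IP) for acetylated lysine 5 of histone H4 (H4K5ac), its input, chromatin immunoprecipitated for acetylated lysine 8 (H4K8ac), and its input. All 4 groups share genotype, food and temperature, so the comparisons concern where the marks lie. The title of the series places the marks in a study of histone deacetylation and lipid metabolism. The labels number the replicates without saying whether they were separate cultures, so p-values reflect no more than the variation among these libraries, which could be technical in part or whole.

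PGL-3 is a scaffold protein of P granules, the RNA-rich condensates of the worm germ line, and has a close paralog, PGL-1. GLH-2 is a DEAD-box RNA helicase related to Vasa and a constitutive component of the same granules. PUF-6 is an RNA-binding protein of the Pumilio and FBF family that acts with its relatives PUF-5 and PUF-7 in late oogenesis. Acetyl groups on the tail of histone H4 are generally found at active chromatin. A whole worm holds germ cells and somatic cells, so more of a mark per cell and more cells with the mark cannot be told apart here.

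Each gene had 1 region per mark, and every one of these 6 regions reached over the transcription start site (TSS). The share of all listed regions that reach over a TSS was not counted, so this is not shown to be particular to these genes. Coordinates are those of build WBcel235. The gene pgl-3 lies on the plus strand at V:4755979-4758587, with its TSS at 4756255. Its H4K5ac region covered V:4754201-4758399, a length of 4199 bp, and was annotated promoter-TSS. Its H4K8ac region began at the same base and ran to 4759199, a length of 4999 bp, and was annotated exon 2 of 7. The whole H4K5ac region thus lay inside the H4K8ac region and made up 84.0% of it, and the 800 bp found for H4K8ac alone lay over and past the 3′ end of the gene. The H4K5ac region covered 92.8% of the gene and the H4K8ac region 100%.

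The gene glh-2 lies on the plus strand at I:6513928-6517507, with its TSS at 6514021. Its regions were the longest of the 3 genes in both marks, at 7399 bp for H4K5ac (I:6512001-6519399, exon 6 of 9) and 8599 bp for H4K8ac (I:6510801-6519399, exon 4 of 9). Median region lengths over the whole lists were 3799 bp for H4K5ac and 4199 bp for H4K8ac, and the glh-2 regions were longer than 75.7% and 77.8% of their lists. The regions shared their downstream edge, 5378 bp past the TSS, and covered the whole gene in both marks. As at pgl-3, the H4K5ac region lay wholly inside the H4K8ac region, which extended 1200 bp further upstream.

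The gene puf-6 lies on the minus strand at II:13039792-13043445, with its TSS at 13043410. Its regions were offset. The H4K5ac region, II:13041601-13047199, was 5599 bp long, was annotated promoter-TSS and reached 3789 bp upstream of the TSS and 1809 bp downstream. The H4K8ac region, II:13041401-13044799, was 3399 bp long, was annotated exon 2 of 4 and reached 1389 bp upstream and 2009 bp downstream. They shared 3199 bp, which was 57.1% of the H4K5ac region and 94.1% of the H4K8ac region. The 3′ end of puf-6 lay outside the region named for it: with a further region named for F18A11.11, 67.1% of the gene was covered for H4K5ac and 78.1% for H4K8ac. The upstream edge differed together with the neighbouring region named for F42G4.2, whose nearer edge stood 4591 bp from the puf-6 TSS for H4K5ac and 2191 bp for H4K8ac, so the stretch from 2191 to 3789 bp upstream of the TSS was listed under puf-6 for H4K5ac and under F42G4.2 for H4K8ac.

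**Figure D1:**
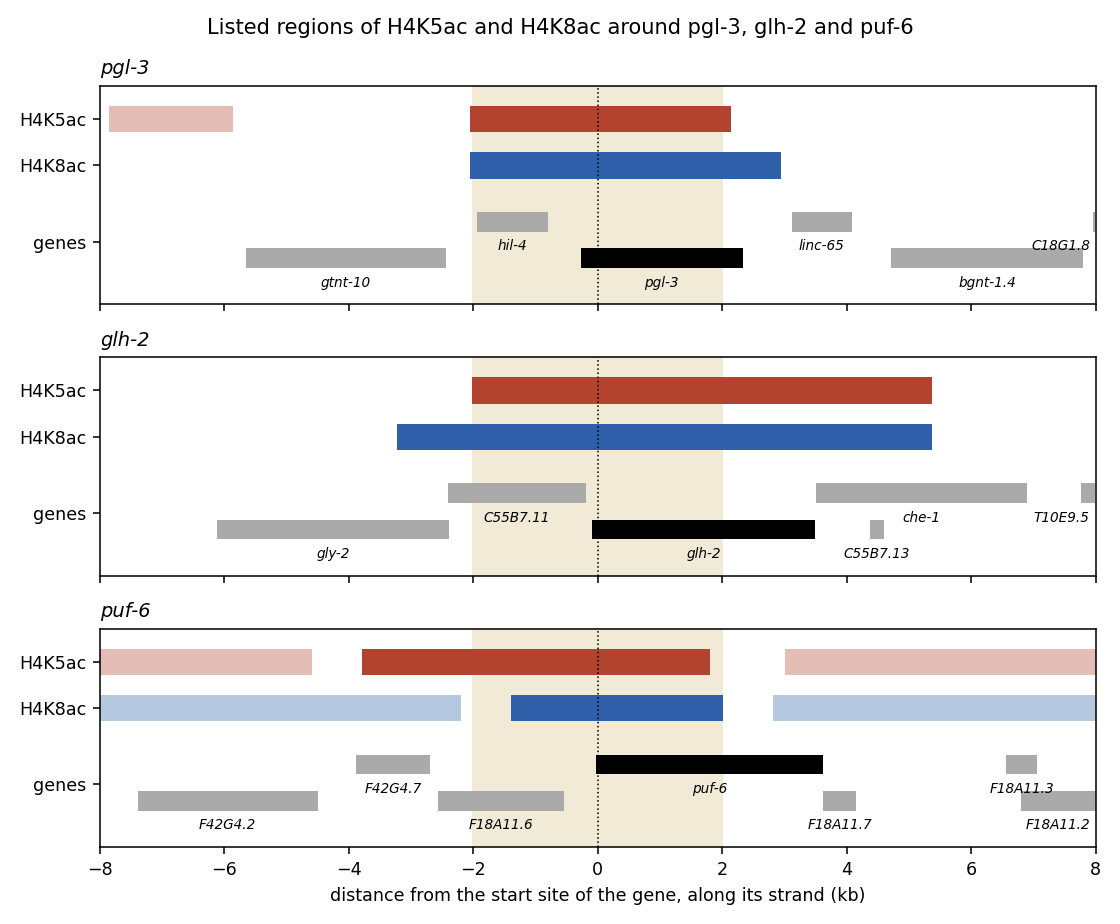
Regions of H4K5ac (upper row of each panel) and H4K8ac around pgl-3, glh-2 and puf-6, by distance from the TSS in kb in the direction of transcription; dark bars are the region named for the gene, pale bars other regions, and the shading marks 2 kb up and downstream. Every dark bar crosses the TSS, the H4K5ac bar lies inside the H4K8ac bar at pgl-3 and glh-2, and at puf-6 the H4K5ac bar reaches 3789 bp upstream against 1389 bp for H4K8ac.

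Other annotated genes lie under these regions. The histone H1-like gene hil-4 ends 802 bp upstream of the pgl-3 TSS and lay under both pgl-3 regions. The protein-coding gene C55B7.11 ends 191 bp upstream of the glh-2 TSS and also lay under both regions, as did che-1, a zinc finger transcription factor gene of ASE neurons that begins 3508 bp downstream. The H4K8ac region of glh-2 met gly-2 in addition. Upstream of puf-6, the pseudogene F18A11.6 ends 541 bp from the TSS and lay under both regions. The gene F42G4.7 met the puf-6 region for H4K5ac but not for H4K8ac, where it lay under the region named for F42G4.2. None of hil-4, C55B7.11 and F18A11.6, the genes within 2 kb of a TSS of the 3, was named for a region in either table, and the sources used here do not give how reads near such neighbours were assigned. The same holds for reads shared by near-identical copies, so values of glh-2, which has the close paralog glh-1, and of puf-6, which has the close paralog puf-7, are uncertain to that extent.

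The lists run from high to low IP over input of the deposited counts of the named gene. The Spearman correlation of position with that ratio was -0.9995 for H4K5ac and -0.9999 for H4K8ac. Positions therefore restate the folds given below, before scaling, and are not a separate measure of the regions. The pgl-3 region stood at position 879 of 6432 for H4K5ac and 385 of 6397 for H4K8ac, in the first 13.7% and 6.02% of the lists. The glh-2 region stood at 1493 for H4K5ac and 658 for H4K8ac (23.2% and 10.3%), and the puf-6 region at 1077 and 1012 (16.7% and 15.8%). The pgl-3 region was thus the highest of the 3 in both lists, and glh-2 and puf-6 stood in the opposite order for the 2 marks. The listed neighbours of pgl-3 were F44G4.2 and C50B6.3 for H4K5ac and Y73B3A.1 and cogc-2, a Golgi complex gene, for H4K8ac. Those of glh-2 were pqn-96 and the microRNA gene mir-1824 for H4K5ac and F52C12.2 and mlcd-1 for H4K8ac. Those of puf-6 were H20J04.6 and sma-9, which encodes a Schnurri-like transcription factor, for H4K5ac, and gln-6 and Y97E10C.t1 for H4K8ac. No gene of the germ line and oocyte lists was among these neighbours.

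Levels are in CPM, the estimated count of a gene scaled to the effective size of its library over the 3750 genes, and the counts of the 3 genes ranged from 814.5 to 2702 per library. For H4K5ac, pgl-3 had 357.6, 287.6 and 274.2 CPM in the IP libraries of replicates 1, 2 and 3, against 230.8, 220 and 210.6 CPM in the inputs. For H4K8ac it had 326.9, 270.1 and 282.3 CPM in the IP libraries, against 197.4, 204.1 and 202.3 CPM in the inputs. The lowest IP library was above the highest input library in both marks, and replicate 1 gave the highest IP level in each. Means were 306.5 ± 44.8 CPM in the H4K5ac IP and 220.5 ± 10.1 CPM in its input, and 293.1 ± 29.9 CPM in the H4K8ac IP and 201.3 ± 3.45 CPM in its input (SD, n = 3 each).

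For H4K5ac, glh-2 had 434, 363.5 and 405 CPM in the IP libraries, against 343.7, 325.5 and 318.7 CPM in the inputs. For H4K8ac it had 437.2, 400.8 and 411.5 CPM in the IP libraries, against 313.3, 312 and 298.7 CPM in the inputs. The groups again did not overlap, and the gap was narrower for H4K5ac, where IP replicate 2 came closest to the inputs. Means were 400.8 ± 35.4 CPM in the H4K5ac IP and 329.3 ± 12.9 CPM in its input, and 416.5 ± 18.7 CPM in the H4K8ac IP and 308 ± 8.06 CPM in its input (SD, n = 3 each).

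For H4K5ac, puf-6 had 452.3, 391.3 and 358.6 CPM in the IP libraries, against 323.4, 293.8 and 289 CPM in the inputs. For H4K8ac it had 375.6, 360.8 and 356.3 CPM in the IP libraries, against 287.2, 291.2 and 292.3 CPM in the inputs. Every IP library was above every input library in both marks, and the IP libraries were more alike for H4K8ac than for H4K5ac. Means were 400.7 ± 47.6 CPM in the H4K5ac IP and 302 ± 18.6 CPM in its input, and 364.2 ± 10.1 CPM in the H4K8ac IP and 290.2 ± 2.7 CPM in its input (SD, n = 3 each). IP and input thus did not overlap for 3 of 3 genes in each mark, where every IP library was above every input library for 34.3% of the 3750 genes in H4K5ac and 35.9% in H4K8ac, and below every input library for 33.7% and 31.7%.

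**Figure D2:**
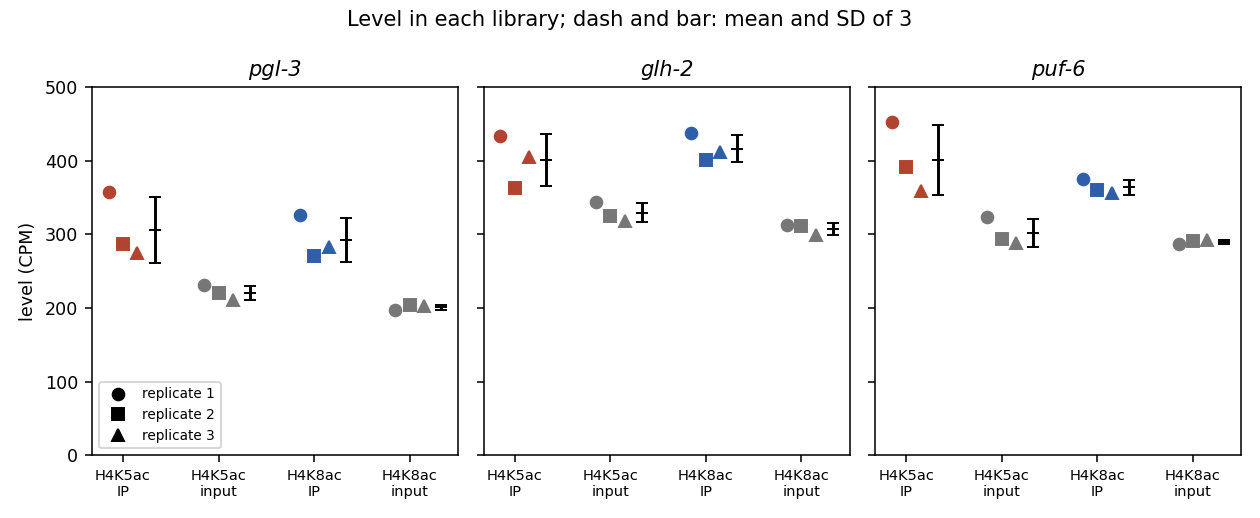
Level of pgl-3, glh-2 and puf-6 in CPM for each of the 12 libraries (points), by group, with the mean and SD of 3 libraries. Every IP point lies above every point of the matching input for all 3 genes in both marks.

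The first comparison asked whether each gene had more H4K5ac reads than its input, relative to the typical listed gene. All 3 did. The log2 fold of IP over input was 0.48 ± 0.088 (SE) for pgl-3, a 1.39-fold higher level, with a 95% interval of 0.29 to 0.66 and an adjusted p of 0.000165 by edgeR's quasi-likelihood test with Benjamini-Hochberg adjustment. It was 0.41 ± 0.078 for puf-6 (1.33-fold, edgeR adjusted p = 0.000204) and 0.28 ± 0.074 for glh-2 (1.22-fold, edgeR adjusted p = 0.00269). The test called 33.8% of the 3750 genes higher in the H4K5ac IP and 34.3% lower (68.1% either way), which is the background for the 3 of 3 genes called higher. Among the 3750 genes, pgl-3 had a larger log2 fold than 84.8%, puf-6 than 81.7% and glh-2 than 74.9%.

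By replicate, the log2 ratio of H4K5ac IP to the input of the same number was 0.63, 0.39 and 0.38 for pgl-3 in replicates 1, 2 and 3. It was 0.48, 0.41 and 0.31 for puf-6. It was 0.34, 0.16 and 0.35 for glh-2, so replicate 1 was highest for pgl-3 and puf-6 and replicate 3 for glh-2. The labels do not say that IP and input of one number belong together, so the ratios were also taken over the mean of the 3 inputs, a choice made after seeing the data; replicate 1 was then the highest for all 3 genes. Every pgl-3 ratio was above every glh-2 ratio by number, with a fitted difference of 0.19 ± 0.12 (SE), but the ratios over the mean input overlapped (0.70, 0.38 and 0.31 for pgl-3, and 0.40, 0.14 and 0.30 for glh-2). The ratios of puf-6 overlapped those of pgl-3 (pgl-3 minus puf-6, 0.067 ± 0.12) and of glh-2 (puf-6 minus glh-2, 0.12 ± 0.11). These SEs take the compared genes as independent, although they were read in the same libraries, so they do not measure differences within a library. By number, pgl-3 was above glh-2 in every replicate, while puf-6 was below glh-2 in replicate 3 and above pgl-3 in replicate 2. The full order pgl-3, puf-6, glh-2 was therefore not resolved.

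The same comparison for H4K8ac gave higher IP levels for all 3 genes as well. The log2 fold of IP over input was 0.54 ± 0.088 for pgl-3, a 1.46-fold higher level, with a 95% interval of 0.36 to 0.73 and an edgeR adjusted p of 7.59e-05. It was 0.44 ± 0.074 for glh-2 (1.35-fold, edgeR adjusted p = 0.000118) and 0.33 ± 0.078 for puf-6 (1.26-fold, edgeR adjusted p = 0.00188). The test called 30.7% of the 3750 genes higher in the H4K8ac IP and 24% lower (54.7% either way). The log2 fold of pgl-3 was larger than that of 92.8% of genes, that of glh-2 than 88.1% and that of puf-6 than 81.6%.

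By replicate, the log2 ratio for H4K8ac was 0.73, 0.40 and 0.48 for pgl-3 in replicates 1, 2 and 3. It was 0.48, 0.36 and 0.46 for glh-2. It was 0.39, 0.31 and 0.29 for puf-6, so replicate 1 was highest for each gene. Every pgl-3 ratio was above every puf-6 ratio (pgl-3 minus puf-6, 0.22 ± 0.12), by number and over the mean input. The ratios of glh-2 overlapped those of pgl-3 (pgl-3 minus glh-2, 0.11 ± 0.12) in both forms, and those of puf-6 (glh-2 minus puf-6, 0.11 ± 0.11) by number but not over the mean input. The gene pgl-3 thus had the largest fitted fold of the 3 in both marks, though its lead over glh-2 in H4K8ac was within the SE. In the fitted values glh-2 and puf-6 changed places between the marks. Their differences were about as large as the SE in each mark, but this SE takes the genes as independent although they share libraries. Within each replicate the H4K8ac ratio of glh-2 was above that of puf-6, by number and over the mean input. For H4K5ac, puf-6 was above glh-2 in replicates 1 and 2 and below it in replicate 3, so the change of places was not resolved.

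Replicate 1 had the widest ratios in both marks across all genes, by number and over the mean input. The SD of the log2 ratio over the 3750 genes was 0.456, 0.372 and 0.315 in replicates 1, 2 and 3 for H4K5ac, and 0.353, 0.254 and 0.293 for H4K8ac. Of the genes called higher, 62.7% had their highest ratio in replicate 1 for H4K5ac and 73.4% for H4K8ac. Without IP replicate 1 the pgl-3 fold for H4K5ac was 0.35 and that for H4K8ac was 0.45, and both stayed past the threshold.

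The higher calls did not rest on the choice of the genes in both tables. In a fit of the whole H4K5ac table by itself, pgl-3, glh-2 and puf-6 had log2 folds of 0.51, 0.32 and 0.45, and all 3 were called higher, where 32.2% of 5632 genes were called higher and 29.5% lower (61.6% either way). In the H4K8ac table by itself they had 0.57, 0.46 and 0.35, and all 3 were called higher, where 31.2% of 5671 genes were called higher and 33.6% lower (64.8% either way).

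Absolute folds depended on the scaling. Scaling by total count put the median of all genes at -0.129 for H4K5ac and -0.0855 for H4K8ac, and 35.1% and 39.3% of the calls were then higher, against 49.6% and 56.2% in the values above. With that scaling glh-2 had a log2 fold of 0.17 for H4K5ac (edgeR adjusted p = 0.0318), the value nearest to the threshold for any of the 3 genes. Scaling to the least enriched genes put the median at 0.335 and 0.28, made every call a higher one, and gave 0.83, 0.63 and 0.76 for pgl-3, glh-2 and puf-6 in H4K5ac and 0.83, 0.72 and 0.61 in H4K8ac. The 3 genes stood above the median and were called higher in both marks under each scaling.

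**Figure D3:**
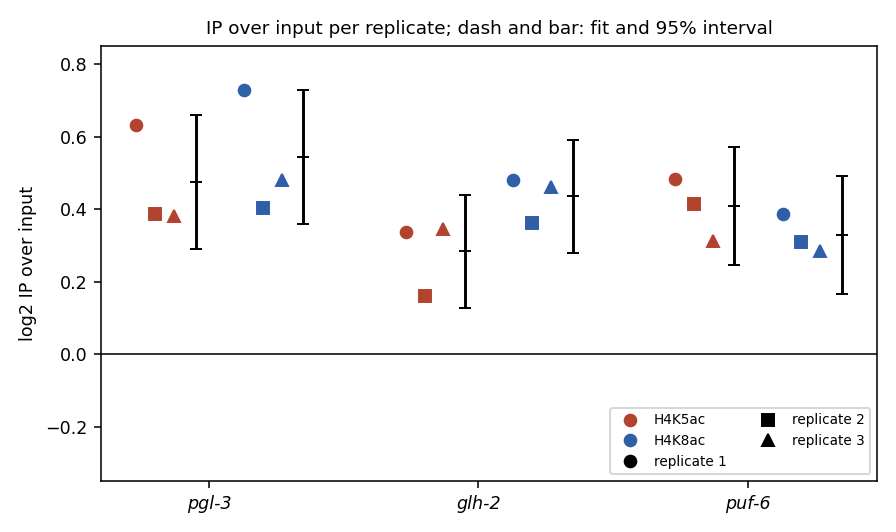
Log2 ratio of IP to input for pgl-3, glh-2 and puf-6 in each replicate (points) for H4K5ac and H4K8ac, each IP taken over the input of the same number, with the fitted log2 fold and its 95% interval. All intervals lie above 0, and the 3 H4K5ac points of glh-2 lie below its 3 H4K8ac points when matched by number, while the points of pgl-3 and puf-6 overlap between the marks.

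The difference between the marks, H4K5ac minus H4K8ac with each mark taken over its own input, did not pass the test for any of the 3 genes. It was -0.068 ± 0.12 (SE) for pgl-3, with a 95% interval of -0.33 to 0.19 and an edgeR adjusted p of 0.807. It was 0.081 ± 0.11 for puf-6, with a 95% interval of -0.15 to 0.31 and an edgeR adjusted p of 0.734. These intervals leave room for a difference of either sign at both genes. For glh-2 it was -0.15 ± 0.10, with a 95% interval of -0.37 to 0.068 and an edgeR adjusted p of 0.478.

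The replicate ratios of glh-2 by number did not overlap between the marks: the highest for H4K5ac was 0.35 and the lowest for H4K8ac was 0.36. Taken so, every H4K5ac ratio was below every H4K8ac ratio for 8.93% of the 3750 genes, and above for 12.5%. Over the mean input the glh-2 ratios did overlap, with 0.40, 0.14 and 0.30 for H4K5ac and 0.51, 0.38 and 0.42 for H4K8ac, so the separation rests on matching IP and input by number. The glh-2 difference was larger than that of 14.6% of genes, the pgl-3 difference than 34.1% and the puf-6 difference than 69.3%. By edgeR 0 of 3750 genes (0%) were called for the difference, while 549 had an unadjusted p under 0.05 and DESeq2 called 41. Without H4K5ac IP replicate 3 edgeR called 193 genes, and none of the 3 was called there or under any other alternative.

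**Figure D4:**
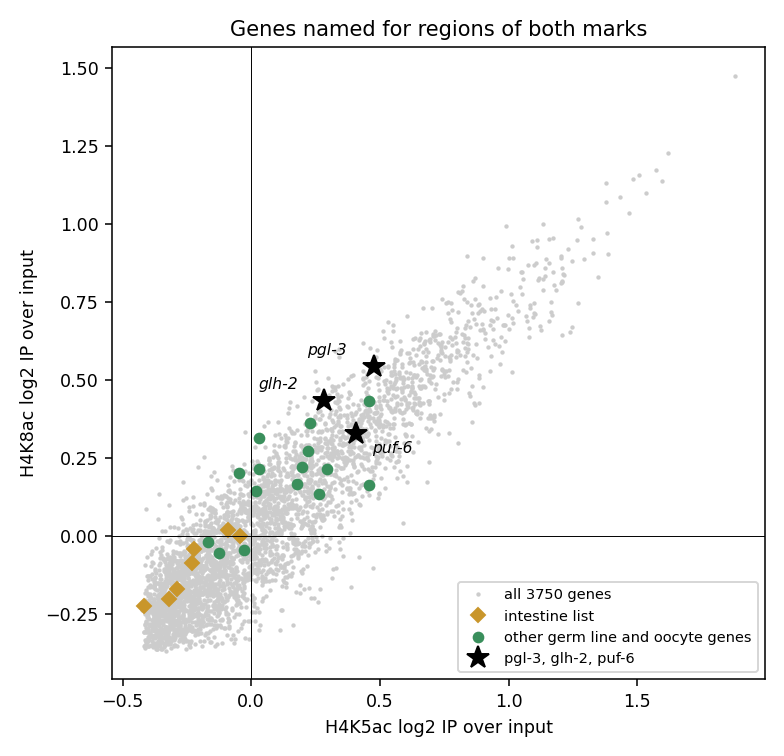
Fitted log2 fold of IP over input for H4K5ac (horizontal axis) against H4K8ac (vertical axis) for 3750 genes, with pgl-3, glh-2 and puf-6 as stars, other germ line and oocyte genes in green and intestine genes in gold. The 3 stars lie in the upper right, at 0.48 and 0.54, 0.28 and 0.44, and 0.41 and 0.33, and the 7 intestine genes lie near or below 0.

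Genes with the most similar pattern were found by the root mean square difference over the 6 replicate ratios, among the 3750 genes. For pgl-3 the nearest were M4.1 (0.0575), Y73B3A.1 (0.0608) and pezo-1 (0.068), the gene of a mechanosensitive Piezo channel, where the median distance of all genes was 0.556. For glh-2 they were D2096.11 (0.0676), algn-8 (0.0697), a glucosyltransferase gene of N-glycan assembly, and the F-box gene fbxc-47 (0.0754), with a median of 0.439. For puf-6 they were emc-2 (0.0357), a subunit gene of the endoplasmic reticulum membrane complex, arp-1 (0.0397), an actin-related gene, and W09G3.6 (0.0436), with a median of 0.434. Over the mean input, 2 of the 3 nearest genes were shared for pgl-3 and for glh-2, and 0 of 3 for puf-6. None of the 3 germ granule and oocyte genes was, by number, among the 3 nearest of another. From pgl-3, puf-6 was at position 278 (0.178) and glh-2 at 304 (0.184), and from glh-2, puf-6 was at 147 (0.147). These distances were still below the medians of all genes, 0.556 from pgl-3 and 0.439 from glh-2.

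Other genes of germ granules and oocytes put these values in context. The lists take in the PUF family, with the pseudogene puf-10 and with puf-9, which is best known from somatic tissue. They hold 73 genes, of which 18 were measured for both marks, the 3 genes included. Of the 15 others, 8 rose and 1 fell in the H4K5ac IP over input, where 33.8% of all genes were called higher and 34.3% lower. In the H4K8ac IP 9 rose and 0 fell, where 30.7% of all genes were called higher and 24% lower. Their median log2 fold was 0.18 for H4K5ac, against -0.012 over all genes, and 0.20 for H4K8ac, against -0.0026. Over all 18 genes the higher calls numbered 11 for H4K5ac and 12 for H4K8ac. With scaling by total count they numbered 5 and 7 of 18, beside 25.5% and 24% of all genes, so the share for H4K5ac was then near that of all genes. With scaling to the least enriched genes they numbered 18 and 18, beside 69.3% and 66.4% of all genes.

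Within the families of the 3 genes, the values were uneven. The paralog pgl-2 fell in H4K5ac, with a log2 fold of -0.17 ± 0.067 (SE; edgeR adjusted p = 0.0329), a call that was lost without H4K5ac IP replicate 1, with scaling to the least enriched genes and in the fit of the H4K5ac table by itself (-0.13, edgeR adjusted p = 0.147). Its H4K8ac value was -0.018 ± 0.066 (edgeR adjusted p = 0.837). In the PUF family, puf-9, a regulator best known from somatic tissue, rose in H4K5ac (0.46 ± 0.077) and had 0.16 ± 0.077 in H4K8ac (edgeR adjusted p = 0.0777), where the H4K8ac table fitted by itself called it higher (0.19, edgeR adjusted p = 0.0153). The gene fbf-1, which keeps germ line stem cells undifferentiated, had 0.030 ± 0.062 in H4K5ac (edgeR adjusted p = 0.685) and 0.22 ± 0.062 in H4K8ac (edgeR adjusted p = 0.00686). The difference between the marks did not pass the test for either, at 0.29 ± 0.11 for puf-9 (edgeR adjusted p = 0.259) and -0.19 ± 0.088 for fbf-1 (edgeR adjusted p = 0.337).

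Among the other germ granule genes, gld-2, a cytoplasmic poly(A) polymerase gene, rose in both marks (0.22 ± 0.062 in H4K5ac and 0.27 ± 0.061 in H4K8ac). The Argonaute gene csr-1 rose in H4K5ac (0.26 ± 0.090) and had 0.14 ± 0.090 in H4K8ac (edgeR adjusted p = 0.209). Of 10 oocyte and maternal genes, 5 rose and 0 fell in H4K5ac, beside 33.8% and 34.3% of all genes, and 7 rose and 0 fell in H4K8ac, beside 30.7% and 24%. The highest values of the 15 others in both marks were those of lin-41, which controls oocyte growth and maturation, at 0.46 ± 0.073 in H4K5ac and 0.44 ± 0.073 in H4K8ac. The yolk receptor gene rme-2 had 0.028 ± 0.060 in H4K5ac (edgeR adjusted p = 0.690) and rose in H4K8ac (0.32 ± 0.060, edgeR adjusted p = 0.000305), with a difference of -0.29 ± 0.085 that did not pass the test (edgeR adjusted p = 0.210). The eggshell proteoglycan genes cpg-1 and cpg-2 rose in both marks, and glp-1, the germ line Notch receptor gene, and mbk-2 passed the test in neither.

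**Figure D5:**
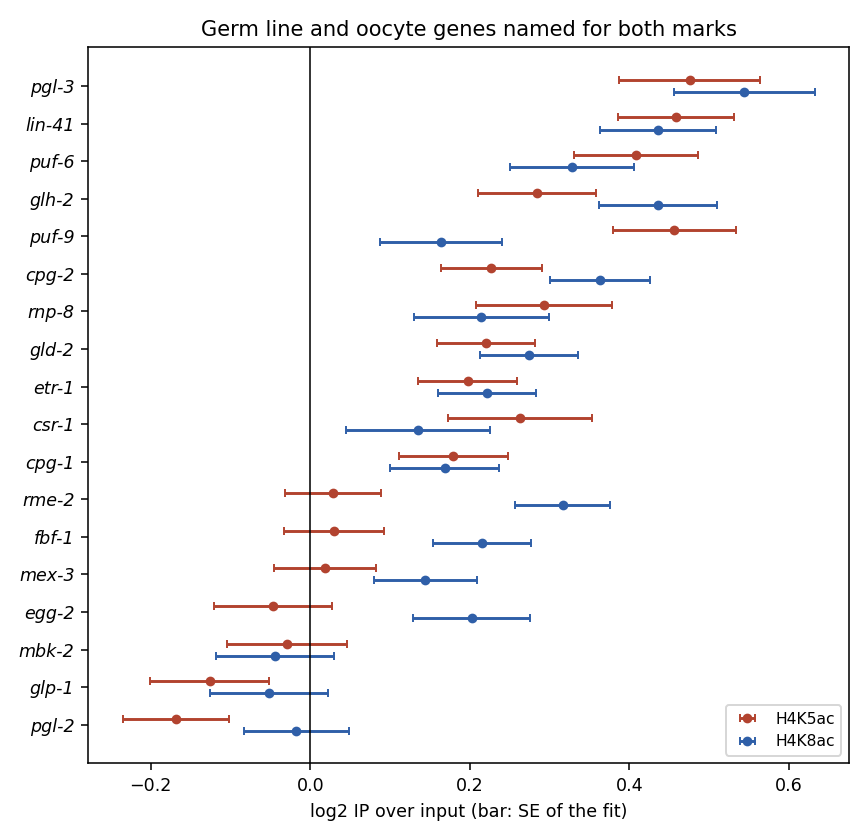
Fitted log2 fold of IP over input, with its SE, for the 18 germ line and oocyte genes measured for both marks, H4K5ac beside H4K8ac. The values of pgl-3 (0.48 and 0.54) are the highest of the 18 in both marks, and pgl-2 has the lowest for H4K5ac (-0.17). For H4K5ac lin-41 (0.46) and puf-9 (0.46) lie within the SE of pgl-3.

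Genes of somatic tissues were measured in the same worms. Of 7 intestine genes measured for both marks, 0 rose and 5 fell in H4K5ac, with a median of -0.23, where 34.3% of all genes were called lower. In H4K8ac 0 rose and 3 fell, with a median of -0.086, where 24% of all genes were called lower, though no gene was called lower with scaling to the least enriched genes. The yolk protein gene vit-6 had -0.32 ± 0.069 in H4K5ac and -0.20 ± 0.068 in H4K8ac. All 6 fitted folds of pgl-3, glh-2 and puf-6 were above the highest of these intestine genes, but not above all muscle genes. The actin gene act-4 had 0.59 ± 0.080 in H4K5ac, above all 3 genes, and 0.19 ± 0.080 in H4K8ac. The myosin light chain gene mlc-3 had 0.39 ± 0.077 in H4K5ac, above glh-2, and 0.33 ± 0.077 in H4K8ac, above puf-6.

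The region lists reached more of the germ granule and oocyte genes than the fit did, since a region can lie over a gene without being named for it. An H4K5ac region overlapped 68 of the 73 genes by at least 1 bp (93.2%) and an H4K8ac region 66 (90.4%), beside 53.3% and 58.1% of 19971 protein-coding genes. Genes of somatic lists of 12 genes each were also often overlapped by at least 1 bp. Muscle genes were at 100% for H4K5ac and 83.3% for H4K8ac, intestine genes at 75.0% and 83.3%, and neuron genes at 66.7% and 75.0%. With only the upper 50% of each region list, 4 muscle, 2 intestine and 4 neuron genes were overlapped for H4K5ac. For H4K8ac they numbered 4, 3 and 5. Germ granule and oocyte genes then numbered 62 and 59 of 73, beside 37.7% and 40.8% of protein-coding genes. With at least 50% of the gene covered, neuron genes numbered 4 and 3. Muscle genes then numbered 10 and 10, intestine genes 9 and 8, and germ granule and oocyte genes 64 and 66. Of all protein-coding genes, 42.9% and 48.4% were covered to that extent. By at least 1 bp, all 7 PGL and GLH genes were overlapped in both marks. Of the 11 PUF genes, 11 were for H4K5ac and 10 for H4K8ac, puf-8 being the exception. The paralogs glh-1 and pgl-1 were covered whole by both marks. The partner genes of puf-6 differed: puf-5 was covered whole by both marks, and puf-7 to 39.0% for H4K5ac and 72.3% for H4K8ac. Genes without a region in either mark were meg-1, meg-3, meg-4 and perm-4, and a gene without a listed region is not shown to lack the mark.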

How the data were processed

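H4K5ac and H4K8ac were measured by chromatin immunoprecipitation and sequencing, giving for either mark 3 libraries of precipitated chromatin (IP) and 3 of input. The submitters' processing notes name MACS2 2.1.0, Bowtie 1.1.2 and Trimmomatic 0.33, and as builds hg38 and WBcel235, with no role for any of them. The authors deposited, for each mark, 1 region list and 1 estimated count per gene and library, not normalized; the sources used here do not give the counting tool. Region edges lie on a 200 bp grid in 100% of lines. The mean input count did not follow region length (Spearman 0.0107 for H4K5ac and -0.0037 for H4K8ac, across regions). It fell with the number of annotated genes within 2 kb of the start site (-0.508 and -0.503, across genes), as if reads near a start site were divided between genes. The IP counts were not examined in this way. Start sites were computed from the deposited distances and strands, and those of the marks agreed within 1 bp in 100% of 3557 pairs of lines that name the same transcript. Gene spans come from a RefSeq gene table of WBcel235; 5347 of 5632 and 5377 of 5671 gene names matched by symbol. Of each table, a single line was left out because its name had become a date and could not be matched. Total counts ranged from 5460429 to 9156392. Replicates of a group differed beyond counting noise (chi-square per degree of freedom 1.28 to 22.9).

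Estimated counts were rounded and tested with edgeR 4.0.16 (R 4.3.3): TMM scaling, the quasi-likelihood test on all 12 libraries with 1 mean per group over the 3750 genes in both tables, Benjamini-Hochberg adjustment over these genes and a threshold of 0.05. The low-count filter removed 0 genes. The difference between the marks was the difference of the 2 log2 folds in that fit. Fits of each table by itself, DESeq2 1.42.0, other scalings, a replicate block and leaving out each library were alternatives. The fit was first tested on simulated data with known changes. Log2 changes of 0.3 were recovered for 72% of changed genes in H4K5ac IP over input, but for 37% in the difference between the marks. For changes of 0.6 the shares were 100% and 97%. Ratios by replicate divide an IP by the input of the same number, and were repeated over the mean of the 3 inputs. The members, gene lists and tests were chosen with earlier results of these data known. Beside the 3 members, genes were named if they belonged to a list of germ line, oocyte, muscle, intestine or neuron genes, lay near a member, stood beside it in a list, or were among the 3 whose 6 replicate ratios were closest to it.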

Additional observations from a re-analysis of the deposited data

How the results depend on the processing

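Of 276 values recomputed under other settings, 255 kept their direction and their side of the threshold (counts within 1.5 times), 18 moved and 3 changed sign. The IP over input calls of pgl-3, glh-2 and puf-6 held in both marks under all 19 alternatives. Some alternatives could hardly move a call, and they are among the 276 values too. The low-count filter removed 0 genes, so the fit without it repeated the main fit. Leaving out an H4K8ac library kept the pgl-3 fold for H4K5ac at 0.475 to 0.477. Leaving out 1 library at a time gave 0.35 to 0.55 for pgl-3, 0.22 to 0.35 for glh-2 and 0.31 to 0.49 for puf-6 in H4K5ac, and 0.45 to 0.60, 0.39 to 0.46 and 0.30 to 0.34 in H4K8ac. It gave 2262 to 2631 called genes for H4K5ac, 1650 to 2350 for H4K8ac and 0 to 193 for the difference between the marks, with 7 without H4K5ac IP replicate 1 and 193 without H4K5ac IP replicate 3. DESeq2 called 41 genes for that difference. The H4K8ac table fitted by itself called 3676 genes, with more genes tested. The difference between the marks ranged from -0.20 to 0.026 for pgl-3, -0.21 to -0.081 for glh-2 and -0.016 to 0.16 for puf-6. That of puf-6 turned to -0.016 without H4K5ac IP replicate 1, and that of pgl-3 to 0.013 without H4K5ac IP replicate 3 and 0.026 without H4K8ac IP replicate 1; none of these passed the test, and the cause was not tested. IP and input of the same number did not deviate together in H4K8ac (correlations of -0.259, -0.152 and 0.0729; 0.286, 0.114 and 0.233 in H4K5ac), and H4K5ac IP replicate 2 correlated more with input 3 (0.153), so the numbers were not taken as pairs in the fit; ratios by number follow the labels alone, and those that change over the mean input are given with both values. With the replicate block 2559, 2079 and 0 genes were called, and no call of the 3 genes changed. With 3 libraries a group, the standard errors of the difference between the marks were 0.10 to 0.12 for the 3 genes, and no gene was called although differences ran from -0.495 to 0.584.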

Other observations

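Further germ granule and oocyte genes were named in 1 table only and were tested in the fit of that table, where 32.2% of 5632 genes were called higher for H4K5ac (29.5% lower) and 31.2% of 5671 for H4K8ac (33.6% lower). For H4K5ac, 7 of these 11 genes rose and 1 fell, and for H4K8ac 3 of 5 rose and 0 fell. In H4K5ac, mei-1, a katanin gene of the meiotic spindle, rose by a log2 fold of 0.65 ± 0.085 (SE; edgeR adjusted p = 7.90e-05), and the eggshell gene cbd-1 by 0.59 ± 0.081 (edgeR adjusted p = 0.000102). The Argonaute genes wago-4 (0.58 ± 0.10), hrde-1 (0.57 ± 0.073) and prg-1 (0.49 ± 0.089) rose as well, while glh-3 had -0.011 ± 0.079 (edgeR adjusted p = 0.907) and the eggshell gene perm-2 fell (-0.35 ± 0.062). In H4K8ac, puf-11 (0.59 ± 0.064), gld-3 (0.53 ± 0.065) and pgl-1 (0.37 ± 0.069) rose. In these fits pgl-3 had 0.51 in H4K5ac, below mei-1, cbd-1, wago-4 and hrde-1, and 0.57 in H4K8ac, below puf-11. In H4K8ac, meg-2 had -0.086 ± 0.065 and mex-6 -0.099 ± 0.052, and neither passed the test (edgeR adjusted p = 0.258 and 0.110).

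Muscle genes were called in both directions. Of 5 measured for both marks, 2 rose and 2 fell in each mark, beside the shares of all genes (33.8% higher and 34.3% lower in H4K5ac, 30.7% and 24% in H4K8ac), although none was called lower with scaling to the least enriched genes. For act-4 the difference between the marks, H4K5ac minus H4K8ac, was 0.40 ± 0.11 and did not pass the test (edgeR adjusted p = 0.207). The paramyosin gene unc-15 had -0.30 ± 0.072 in H4K5ac and -0.31 ± 0.071 in H4K8ac. Of 4 neuron genes 0 rose in either mark, and 2 fell in H4K5ac and 1 in H4K8ac, beside 34.3% and 24% of all genes called lower. Both H4K5ac calls were lost in the fit of that table by itself (edgeR adjusted p = 0.0681 for cha-1 and 0.0850 for sbt-1), and none of the 3 calls held with scaling to the least enriched genes. With genes named in 1 table only included, the H4K5ac table fitted by itself had 2 of 8 muscle genes higher and 4 lower. It had 0 of 5 neuron genes higher and 1 lower (unc-64, -0.36 ± 0.089). The H4K8ac table had 2 of 6 muscle genes higher and 3 lower, and 0 of 4 neuron genes higher and 1 lower. Of all genes, 32.2% were higher and 29.5% lower for H4K5ac, and 31.2% and 33.6% for H4K8ac.

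Of the 5 listed germ granule and oocyte genes on the X chromosome, 2 (meg-2 and puf-9) were overlapped by a region of each mark. Of the 68 autosomal ones 66 were overlapped for H4K5ac and 64 for H4K8ac, and this contrast was not tested. The shares of all X-linked and all autosomal protein-coding genes overlapped were not counted, so the contrast is not shown to be particular to these genes.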
